A study of Mus musculus and Callithrix jacchus with 22 samples.

Results

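Subcerebral projection neurons (ScPN) are the cells that the authors' annotation of single-cell chromatin accessibility data named ScPN. The name was carried by 3379 of 35064 cells, of which 2428 were among 19145 mouse cells (12.7%) and 951 among 15919 marmoset cells (5.97%). Members were taken by this name alone, and no measured value was used to choose them. Mouse libraries came from wild type C57BL/6 animals, from the somatosensory and motor areas of the cortex, at day 1, 7 or 21 after birth (P1, P7 or P21), with 4 libraries per age. Marmoset libraries came from wild type animals and are labelled somatosensory cortex, with 5 libraries from newborns (Day0), 2 from adults labelled Y7 and 3 from adults labelled Y8. At each mouse age the titles of 2 libraries begin with the age and the other 2 begin with the word Pool. They are called numbered-1, numbered-2, Pool-1 and Pool-2 here, and the labels do not say what was pooled. In the table of cells the names of all 12 mouse libraries begin with Pool, so the word in a title does not show that only those libraries were pooled.

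ScPN are layer V pyramidal neurons whose axons leave the forebrain for the brainstem and the spinal cord, and the corticospinal neurons that serve voluntary movement are among them. The transcription factor Fezf2 is known to specify this class early, and Bcl11b (also called Ctip2), which acts downstream of it, is known to be needed for the growth of its axons. Their closest relatives in the annotation are callosal projection neurons (CPN), which link the hemispheres, and corticothalamic projection neurons (CthPN), which lie in layer VI and send axons to the thalamus. In an assay of open chromatin a transposase cuts and tags accessible DNA, so each cell is described by its reads and by its peaks, the accessible regions in which it has at least 1 read. The tables analysed here give only these counts, a type and a cluster for each cell. No accessibility at Fezf2 or Bcl11b is in them, so the name ScPN was taken from the authors and could not be checked against its markers.

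The number of cells was 893 to 3407 per mouse library and 1209 to 1814 per marmoset library, with 2186788 to 15904940 and 5139726 to 13441944 reads in total. The numbered P1 libraries stood apart, with ScPN medians of 168 and 107 peaks per 1000 reads in numbered-1 and numbered-2. In the other 10 mouse libraries the ScPN median lay between 521 and 577. The other cell types of the numbered P1 libraries had the same low ratio (168 to 174 and 106 to 108), so the differences from P1 are also given without those libraries. Day0 libraries 1 and 2 also stood apart in their annotation, with 168 and 188 cells named ExNeuron, a general name for excitatory neurons, and 2 and 8 named layer IV. Day0 libraries 3 to 5 held at most 1 ExNeuron cell and 113 to 178 layer IV cells. A cell barcode found in more than 1 library was carried by 1184 of 2428 mouse and 19 of 951 marmoset ScPN cells. Of 1336 mouse pairs of cells that shared a barcode and included an ScPN cell, 101 (7.56%) were ScPN on both sides. These pairs were taken over all ages, and no expected share was worked out for them. Within an age, only libraries of the same number shared barcodes. In the pairs of libraries of 1 age that shared barcodes, the 2 cells had the same type in 15.6% to 19.7% of cases, where the products of the type shares gave 16.0% to 21.8%. Nothing in the labels says that libraries came from separate animals, so p-values measure only the spread between these libraries.

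ScPN were the rarest of the 3 long-range projection types at P1 and outnumbered CthPN at P7 as the cells were annotated. The excess over CthPN at P7 was absent from all 4 libraries when the untyped cluster 9 of P7 was counted as CthPN. The counts used here cannot show whether cluster 9 is CthPN, so this gives only the effect of that assignment. As a share of ScPN, CPN and CthPN cells together, they averaged 11.7% ± 1.43 in the P1, 32.5% ± 1.63 in the P7 and 25.2% ± 1.29 in the P21 libraries (SD, n = 4). Layer IV cells were left out of this denominator because that name is first used at P7. The order P1, P21, P7 held without overlap between the libraries of any pair of ages. A share of recovered cells is not a share of the tissue, and sorting and dissociation could set it. The labels carry a protocol for sorting projection neurons by a fluorescent label, while the study calls these samples unfractionated, and which of them applied to these libraries is not known here.

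At P1, numbered-1 held 159 ScPN beside 807 CPN and 406 CthPN, a share of 11.6%. Numbered-2 held 60 ScPN beside 367 CPN and 167 CthPN, a share of 10.1%. Pool-1 had 70 ScPN beside 335 CPN and 197 CthPN (11.6%), and Pool-2 had 85 beside 342 and 199 (13.6%). ScPN were thus the smallest class in every P1 library, with the highest share in Pool-2. At P7, numbered-1 held 189 ScPN beside 340 CPN and 77 CthPN, a share of 31.2%. Numbered-2 held 188 ScPN beside 337 CPN and 63 CthPN, a share of 32.0%. Pool-1 had 247 ScPN beside 450 CPN and 72 CthPN (32.1%), and Pool-2 had 222 beside 322 and 92 (34.9%). In every P7 library ScPN stood between CPN, which were more numerous, and CthPN, which were fewer. At P21, numbered-1 held 532 ScPN beside 864 CPN and 689 CthPN, a share of 25.5%. Numbered-2 held 314 ScPN beside 530 CPN and 348 CthPN, a share of 26.3%. Pool-1 had 196 ScPN beside 360 CPN and 210 CthPN (25.6%), and Pool-2 had 166 beside 357 and 188 (23.3%). In every P21 library ScPN were again the smallest class, at 0.772 to 0.933 ScPN per CthPN. The exact binomial 95% intervals of single libraries, which cover counting error only, reached from 7.80% to 16.5% at P1, from 27.5% to 38.8% at P7 and from 20.3% to 28.9% at P21.

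All 3 differences in share passed the exact two-sided permutation test over libraries, with Benjamini-Hochberg adjustment over 9 composition differences. ScPN rose by 20.8 percentage points from P1 to P7 and lay 13.5 points higher at P21 than at P1 (exact permutation test, n = 4, adjusted p = 0.0321 each). From P7 to P21 the share fell by 7.35 points (exact permutation test, n = 4, adjusted p = 0.0321). The unadjusted p of 0.0286 is the smallest that 4 against 4 libraries can give. Permuted within each series, the labels gave p = 0.0556 for each difference in share (exact permutation test), the smallest possible there. With P1 represented by its Pool libraries alone, P7 lay 19.9 points and P21 12.6 points above it, where 4 against 2 libraries cannot pass 0.05. The size of the differences depended on leaving out layer IV cells, a name that no P1 cell carried. As a share of all pyramidal neurons, ScPN differed by 10.9 points (P7 minus P1), 6.96 points (P21 minus P1) and -3.94 points (P21 minus P7). Each of these smaller differences also passed (exact permutation test, n = 4, adjusted p = 0.0321).

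The fall from P7 to P21 depended on which cells were counted. At P7 a cluster of 834 cells, cluster 9, has no type in the annotation. When its cells were counted as CthPN the share of ScPN differed by 0.506 points between P21 and P7 (exact permutation test, n = 4, adjusted p = 0.571), and the P7 libraries had shares of 23.7%, 24.8%, 23.7% and 26.6% (numbered-1, numbered-2, Pool-1, Pool-2). The difference also missed the threshold among cells with at least 3444 reads (adjusted p = 0.0643) and as a share of all annotated cells (by -2.17 points at n = 4 by the exact permutation test, adjusted p = 0.161). The rises from P1 to P7 and from P1 to P21 passed under each of these settings.

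A ratio of ScPN to 1 other type in the same library does not change with the number of cells of any further type. It does depend on which cells were given the name of that other type. The name layer IV was given to 0 cells at P1, to 255 to 332 cells per library at P7 and to 256 to 681 at P21. Whether cells of that kind were named CPN at P1 was not tested, and no ratio to CPN and layer IV together was worked out. Relative to CPN, ScPN rose from P1 to P7 and differed little between P7 and P21. There were 0.197, 0.163, 0.209 and 0.249 ScPN per CPN in the P1 libraries numbered-1, numbered-2, Pool-1 and Pool-2. At P7 the same libraries had 0.556, 0.558, 0.549 and 0.689 ScPN per CPN, and at P21 0.616, 0.592, 0.544 and 0.465. The P1 values lay below all others, while the P7 and P21 values overlapped. On the log2 scale the ratio rose by 1.53 from P1 to P7 (2.89-fold) and was 1.45 higher at P21 than at P1 (2.73-fold; exact permutation test, n = 4, adjusted p = 0.0321 each). The difference of P21 minus P7 was -0.09 (exact permutation test, n = 4, adjusted p = 0.486). The series pointed opposite ways for that last difference, with 0.12 in the numbered and -0.29 in the Pool libraries. Against the Pool P1 libraries alone the log2 differences were 1.36 for P7 and 1.27 for P21.

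**Figure D1:**
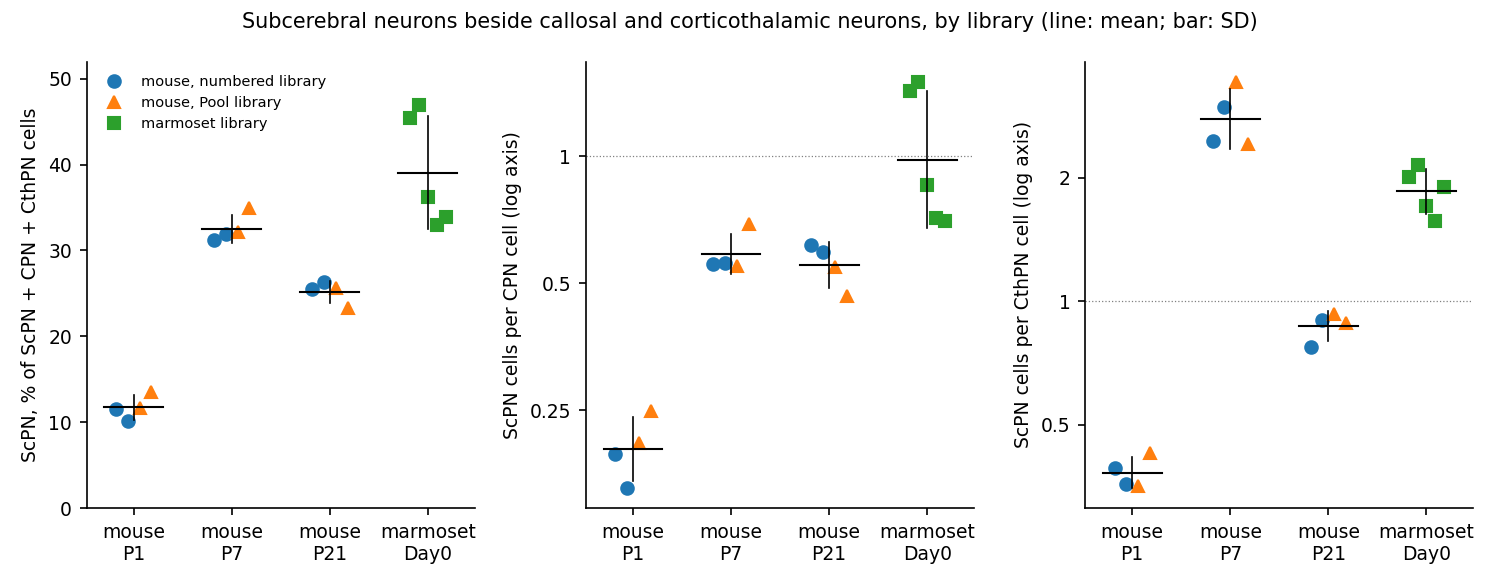
Each point is 1 library: ScPN as a percentage of ScPN, CPN and CthPN cells (left), ScPN cells per CPN cell (middle, log axis) and ScPN cells per CthPN cell (right, log axis) at mouse P1, P7 and P21 and marmoset Day0, with a horizontal line at the mean and a vertical bar of ± 1 SD (on the log2 scale in the middle and right panels). P1 libraries are lowest in each panel, and P7 libraries reach 2.41 to 3.43 ScPN per CthPN, above every other mouse library.

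Relative to CthPN, ScPN rose from P1 to P7 and fell back in part by P21. There were 0.392, 0.359, 0.355 and 0.427 ScPN per CthPN in P1 numbered-1, numbered-2, Pool-1 and Pool-2. The same libraries had 2.45, 2.98, 3.43 and 2.41 at P7, and 0.772, 0.902, 0.933 and 0.883 at P21. As annotated, the 3 ages did not overlap, and ScPN exceeded CthPN at P7 alone. The log2 ratio rose by 2.87 from P1 to P7 (7.30-fold), fell by 1.68 from P7 to P21 and was 1.19 higher at P21 than at P1 (2.28-fold; exact permutation test, n = 4, adjusted p = 0.0321 each). When the numbered P1 libraries were left out, P7 and P21 exceeded P1 by 2.84 and 1.16. With cluster 9 counted as CthPN, ScPN were fewer than CthPN in all 4 P7 libraries (189 against 269, 188 against 234, 247 against 344 and 222 against 291), and P7 overlapped P21. The P7 rise over P1 then shrank to 0.96 (exact permutation test, n = 4, adjusted p = 0.0429), and P21 minus P7 turned to 0.22 (exact permutation test, n = 4, adjusted p = 0.0735). Among cells with at least 1528 peaks the P21 minus P1 difference was 0.98 (exact permutation test, n = 4, adjusted p = 0.0643). The counts of the type in the denominator were low at P7, at 63 to 92 CthPN cells per library.

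Interneurons, the inhibitory cells of the cortex, gave a denominator outside the pyramidal class, for which no test was made. ScPN numbered 44.8, 32.1, 38.3 and 49.1 per 100 interneurons in P1 numbered-1, numbered-2, Pool-1 and Pool-2. At P7 they numbered 99.0, 106, 102 and 152, and at P21 138, 126, 115 and 114 in the same order. The P1 values lay below all others, with or without the numbered libraries, and the P7 and P21 values overlapped.

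The annotation followed clusters, which the study split by age where they mixed ages. The cluster numbers used here did not all hold a single age. CthPN of P1 and P7 shared cluster 18, and CthPN of P7 and P21 shared cluster 20. Each cluster that held ScPN held no other type and no other age. All 374 ScPN cells of P1 lay in cluster 16 and all 846 of P7 in cluster 8. The 1208 cells of P21 lay in cluster 5 (1090 cells) and cluster 24 (118 cells). A change in ScPN number with age therefore cannot be told apart from a change in how the clusters were cut and named. No cell without a type lay in a cluster that held ScPN, so giving each unassigned cell the type of its cluster left the ScPN counts as they were. It moved the shares and ratios slightly through the other types (share of P7 minus P1 20.7 points) and changed no call.

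Cluster 24 was a minor P21 population with fewer reads per cell than cluster 5. It held 51 of 532 ScPN cells in numbered-1, 28 of 314 in numbered-2, 20 of 196 in Pool-1 and 19 of 166 in Pool-2, which is 10.0% ± 1.08 (SD, n = 4 libraries). Its share was thus close to even over the libraries, from 8.92% to 11.4%. Median reads in cluster 24 were 2712, 2425.5, 2584.5 and 3883 in the order numbered-1, numbered-2, Pool-1, Pool-2, against 5057, 5228, 5093.5 and 4947 in cluster 5. Cluster 24 was lower in 4 of 4 libraries, by 0.83 ± 0.33 on the log2 scale (SD, n = 4; a description, since the cells were clustered on their own accessibility). Peaks per 1000 reads were alike, at 544 to 561 in cluster 24 and 548 to 554 in cluster 5.

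In reads per ScPN cell the P1 libraries split by series. The median was 6456 in P1 numbered-1 and 7197 in numbered-2, but 1842.5 in Pool-1 and 1923 in Pool-2. At P7 it was 3851, 4536, 3324 and 4031, and at P21 4842.5, 4920, 4732 and 4779.5, in the same order of libraries. P1 thus held both the highest and the lowest mouse medians, and the P21 libraries lay close to each other, all above the P7 libraries. None of the 3 differences passed after adjustment over 9 depth differences (exact permutation test, n = 4). The log2 differences were 0.13 for P7 minus P1 (adjusted p = 0.836), 0.43 for P21 minus P1 (adjusted p = 0.551) and 0.30 for P21 minus P7 (exact permutation tests, n = 4, unadjusted p = 0.0286, adjusted p = 0.0643). Without the numbered P1 libraries the first 2 were 1.06 and 1.36.

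Peaks per ScPN cell were lowest at P1 in every library of both series. The median was 1056, 833.5, 1041.5 and 1131 peaks in P1 numbered-1, numbered-2, Pool-1 and Pool-2. At P7 it was 2242, 2566.5, 1731 and 2195.5 peaks, and at P21 2643, 2677, 2613.5 and 2636. The ages did not overlap, in the order P1, P7, P21, and each difference reached the smallest p of the design (0.0286) without passing adjustment (exact permutation test, n = 4, adjusted p = 0.0643). The log2 differences were 1.1 for P7 minus P1, 1.39 for P21 minus P1 and 0.29 for P21 minus P7. The last was 0.18 without P7 Pool-1, 0.15 in the numbered libraries alone and 0.43 in the Pool libraries alone. Without the numbered P1 libraries the first 2 were 0.99 and 1.28. At P1 the Pool medians of reads were below those of every P7 and P21 library. The numbered P1 medians of reads were above them, but these libraries yielded few peaks per read. The part of depth in the low P1 peaks was not tested. In ScPN cells with 2000 to 4000 reads the ages overlapped once the numbered P1 libraries were set aside, with median peaks of 1728 and 1499 in P1 Pool-1 and Pool-2, 1501 to 1716.5 at P7 and 1687 to 1726 at P21.

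**Figure D2:**
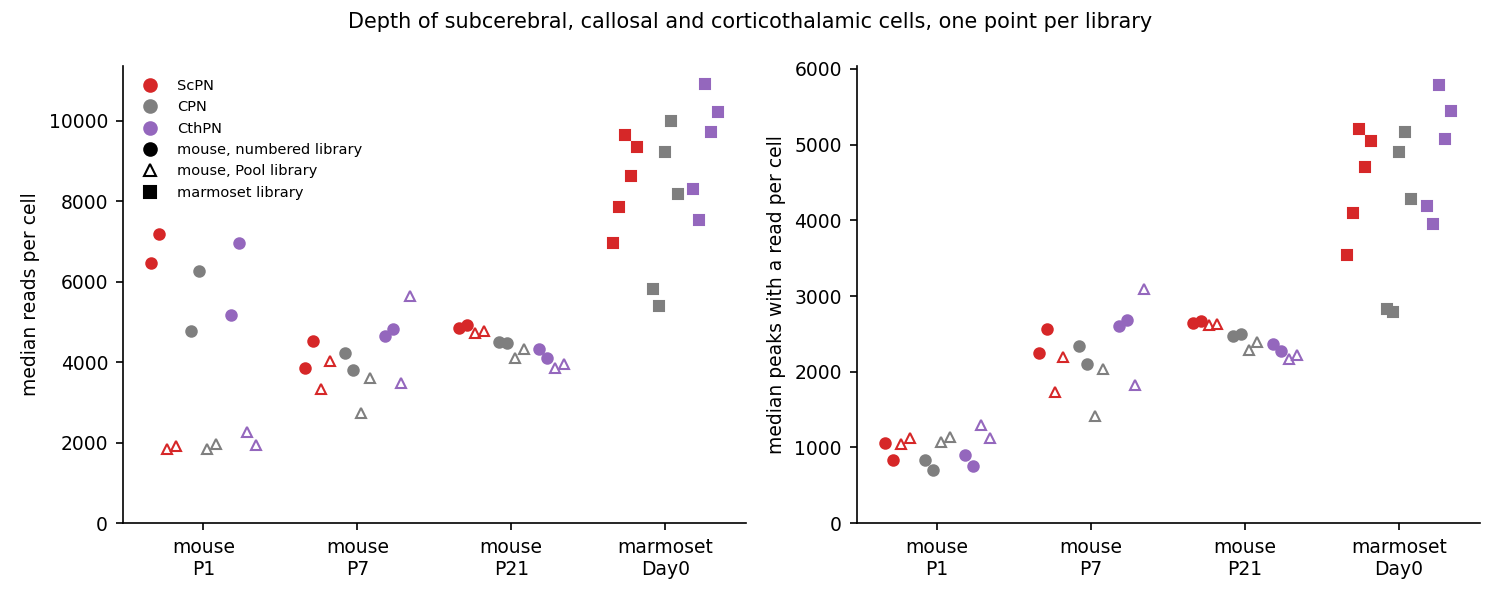
Median reads per cell (left) and median peaks with a read per cell (right) of ScPN, CPN and CthPN cells, with 1 point per library at mouse P1, P7 and P21 and marmoset Day0, filled for numbered, open for Pool and square for marmoset libraries. The P1 libraries split into numbered libraries with ScPN medians of 6456 and 7197 reads and Pool libraries with 1842.5 and 1923 reads, whereas their peaks lie together between 833.5 and 1131.

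Spread within a library was wide at each age. The 10th percentile of reads was 2403, 4032, 1189 and 1194 in P1 numbered-1, numbered-2, Pool-1 and Pool-2, and the 90th was 11799, 12251, 4367 and 4105. At P7 the 10th percentile ran from 1531 to 1919 and the 90th from 6832 to 9287 over the libraries, and at P21 from 1815 to 1994 and from 9275 to 9955. The share of ScPN cells under 2000 reads was 4.40% in P1 numbered-1, and 55.7% and 51.8% in P1 Pool-1 and Pool-2. The same share was 11.2% to 22.7% at P7 and 10.2% to 12.97% at P21. The lowest reads of any deposited cell were 1000, so ScPN of the Pool P1 libraries were the ones closest to that limit.

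Peaks rose with reads along nearly the same line in the ScPN cells of 10 mouse libraries. Median peaks per 1000 reads were 577 and 576 in the Pool P1 libraries, 559, 554, 521 and 552 at P7 and 548, 552, 554 and 553 at P21 (numbered-1, numbered-2, Pool-1, Pool-2). Pool-1 of P7 was the lowest of these 10. Among ScPN cells with 2000 to 4000 reads, median peaks were 535 and 339 in P1 numbered-1 (42 cells) and numbered-2 (6 cells), and 1499 to 1728 in the other mouse libraries. Within a library the ratio hardly separated types, with a range over all types of 2.21% to 3.45% of the median. The differences in peaks per 1000 reads between ages were 190 (P7 minus P1), 195 (P21 minus P1) and 5.20 (P21 minus P7), and none passed (exact permutation test, n = 4, adjusted p = 0.551, 0.551 and 0.886). Without the numbered P1 libraries the first 2 were -29.8 and -24.6.

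**Figure D3:**
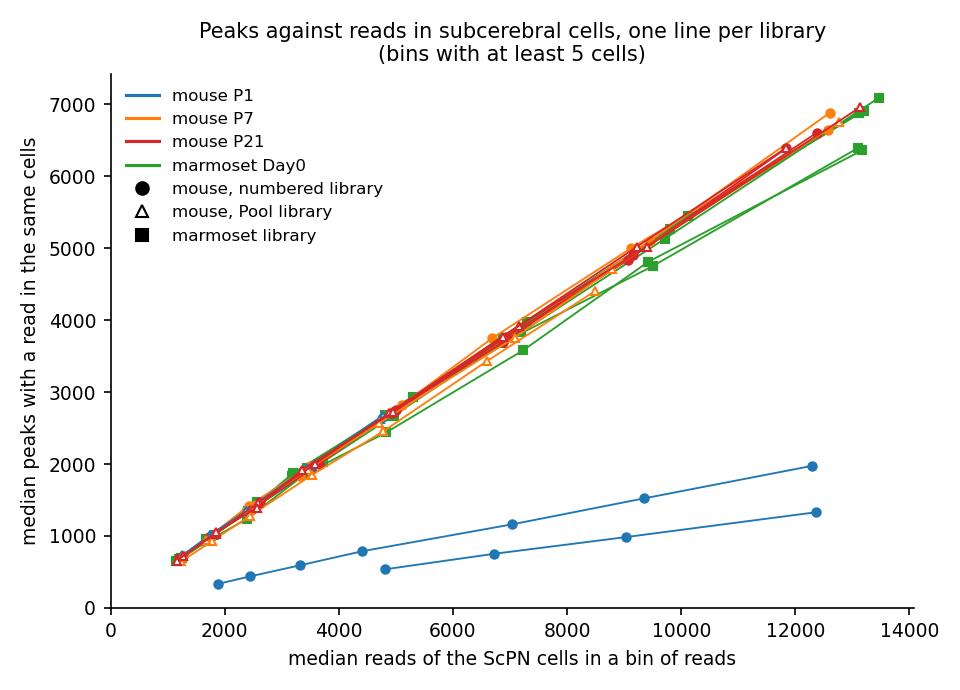
Median peaks against median reads of ScPN cells grouped into bins of reads, with 1 line per library, coloured by age and with filled circles for numbered, open triangles for Pool and squares for marmoset libraries. The numbered P1 libraries run far below the rest, and at 2000 to 4000 reads their medians are 535 and 339 peaks where the other mouse libraries have 1499 to 1728.

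Beside CPN of the same library, ScPN had slightly more reads at P21 and no common direction at P1. The log2 ratio of ScPN to CPN median reads averaged 0.15 ± 0.22 over the P1, 0.14 ± 0.19 over the P7 and 0.15 ± 0.04 over the P21 libraries (SD, n = 4), and ScPN were higher in 2 of 4, 3 of 4 and 4 of 4 libraries. At P21 this is 1.11-fold, for example 4842.5 against 4498 reads in numbered-1. The log2 ratio of median peaks was 0.13 ± 0.19, 0.16 ± 0.17 and 0.13 ± 0.05 at P1, P7 and P21 (SD, n = 4). With 4 libraries the exact sign-flip permutation test cannot go below p = 0.125, the value it gave at P21. No difference between ages in either ratio was larger than the spread (exact permutation test, n = 4, adjusted p = 1 for each of the 6 differences). Against the Pool P1 libraries alone, P7 and P21 differed by 0.16 and 0.16 in reads and by 0.19 and 0.16 in peaks.

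Beside CthPN, ScPN lay on opposite sides at P7 and P21. At P7 the CthPN medians of 4650, 4813, 3475 and 5644.5 reads (numbered-1, numbered-2, Pool-1, Pool-2) were each above the ScPN median of the same library. At P21 the CthPN medians of 4317, 4096.5, 3853.5 and 3943 reads were each below it. The log2 ratio of ScPN to CthPN was -0.23 ± 0.20 at P7 and 0.25 ± 0.06 at P21 (SD, n = 4), and 0.01 ± 0.25 at P1. The difference of P21 minus P7 was 0.48 for reads and 0.44 for peaks (exact permutation test, n = 4, unadjusted p = 0.0286, adjusted p = 0.171 over 12 differences). The groups did not overlap, yet the difference did not pass adjustment. P7 and P21 differed from P1 by -0.24 and 0.24 in the log2 ratio of reads, and by -0.07 and 0.41 with the numbered P1 libraries left out. Among cells with 2000 to 4000 reads the log2 ratio of median peaks was -0.10 ± 0.15 at P7 and 0.07 ± 0.04 at P21 (SD, n = 4).

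In marmoset the name ScPN was given only at Day0, to 951 cells. Day0 libraries 1 to 5 held 185, 189, 215, 187 and 175 ScPN cells, the most even of the 3 types over libraries. Beside them stood 130, 126, 252, 262 and 250 CPN cells and 92, 88, 126, 119 and 92 CthPN cells in the same order. The ScPN share of the 3 types was 45.5%, 46.9%, 36.3%, 32.9% and 33.8%, or 39.1% ± 6.61 (SD, n = 5 libraries), with exact binomial 95% intervals that reached from 29.1% to 51.9%. Libraries 1 and 2 lay above the other 3.

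Those are the libraries with cells named ExNeuron, and the ratio to CPN moved with that name. There were 1.42 and 1.5 ScPN per CPN in Day0 libraries 1 and 2 and 0.853, 0.714 and 0.700 in libraries 3 to 5. With ExNeuron cells added to CPN the ratios were 0.621, 0.602, 0.853, 0.711 and 0.700, and libraries 1 and 2 became the lower ones. Whether ExNeuron cells are CPN, layer IV or other neurons was not tested. The other denominators were steadier, with 2.01, 2.15, 1.71, 1.57 and 1.90 ScPN per CthPN and 34.8, 35.8, 37.0, 33.6 and 32.7 ScPN per 100 interneurons. ScPN were 11.5%, 11.7%, 11.9%, 10.8% and 10.7% of all cells in Day0 libraries 1 to 5, a range of values that did not separate libraries 1 and 2.

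No cell of the 5 adult libraries was named ScPN, and none was named CPN. The adult pyramidal neurons numbered 506, of which 125 were named CthPN, 271 ExNeuron and 110 layer IV. If cells were independent draws, a count of 0 of 506 would allow a share of up to 0.593% over the adult libraries. The same limit would be 1.17% to 8.82% of the pyramidal neurons in single libraries. This limit covers counting error only and concerns cells that carry the name, since ExNeuron cells were not divided by projection type. Types were given by cluster, and the study dropped clusters below a minimum number of cells. The limit therefore does not bound the ScPN present in adult cortex.

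Day0 ScPN fell in 3 clusters, again free of other types and ages. Cluster 13 held 476 cells, cluster 21 held 338 and cluster 25 held 137. Cluster 13 made up 62.7%, 50.8%, 45.1%, 39.0% and 53.7% of ScPN in libraries 1 to 5, and cluster 21 made up 27.6%, 41.3%, 38.6%, 41.2% and 28.0%. Cluster 25 made up 9.73%, 7.94%, 16.3%, 19.8% and 18.3%, and was smaller in libraries 1 and 2 than in the other 3. All 3 clusters were present in every Day0 library, with at least 15 cells.

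Median reads of cluster 25 were 8840.5, 11040, 11628, 10792 and 10672 in Day0 libraries 1 to 5. Cluster 13 had 5923, 6210.5, 5609, 7251 and 6851, below cluster 25 in 5 of 5 libraries, and cluster 25 exceeded it by 0.73 ± 0.21 on the log2 scale (SD, n = 5). Cluster 21 had 8419, 8548.5, 9752, 5075 and 9577, between the others in 4 libraries and lowest in library 4. Depth therefore differed between the clusters, and its part in their separation was not tested.

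**Figure D4:**
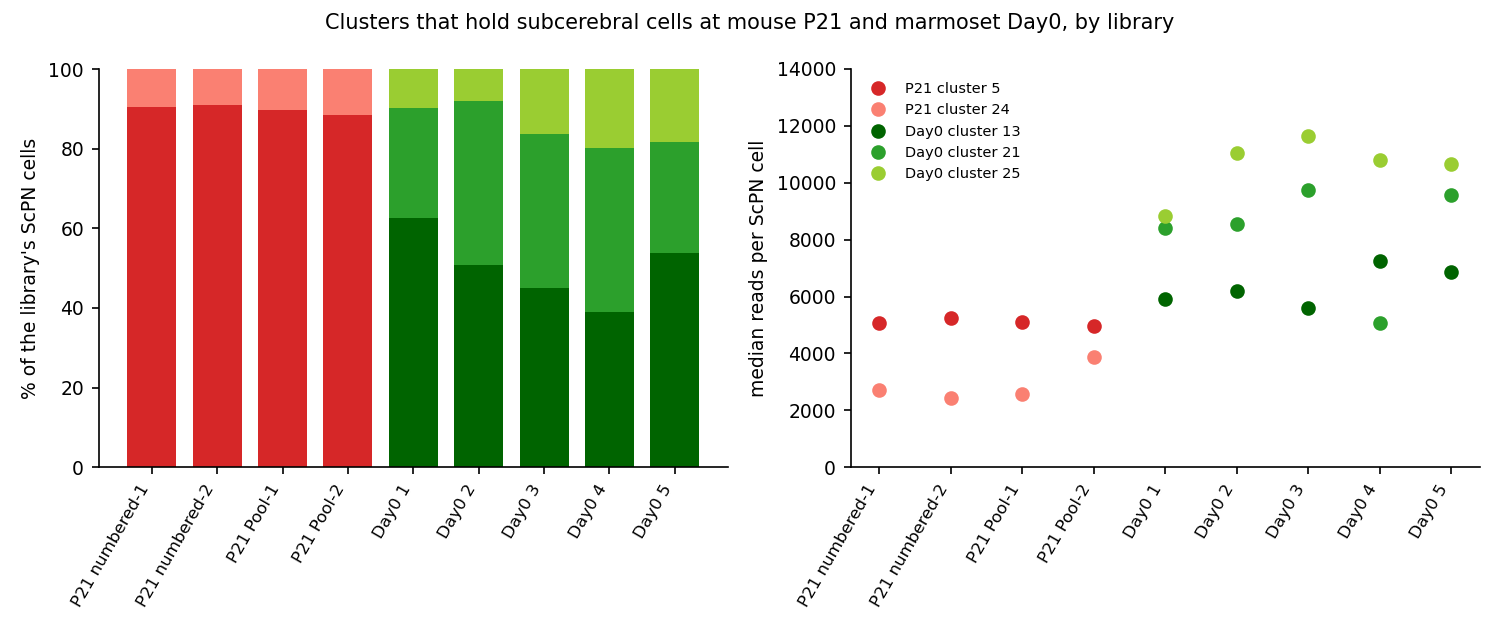
The left panel gives the percentage of each library's ScPN cells in clusters 5 and 24 (mouse P21) and in clusters 13, 21 and 25 (marmoset Day0), and the right panel gives the median reads per cell of each cluster in each library. Cluster 24 takes 8.92% to 11.4% of P21 ScPN and lies below cluster 5 in reads in all 4 libraries, and cluster 25 has the most reads in all 5 Day0 libraries.

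Day0 ScPN cells had medians of 6968, 7867, 9643, 8637 and 9346 reads and 3542, 4103, 5206, 4706 and 5049 peaks in libraries 1 to 5. Libraries 1 and 2 were the shallower ones in both counts. The share of ScPN cells with over 10000 reads was 41.2% ± 5.11 (SD, n = 5), and the 90th percentile ran from 13581 to 14229, close to the 14997 reads of the deepest deposited cell. The study removed cells above an upper limit of reads, so the depth of Day0 ScPN and of their clusters is cut off near that value. Peaks per 1000 reads were 512, 523, 545, 545 and 544. Beside CPN of the same library the log2 ratio of median reads was 0.17 ± 0.28, with ScPN higher in 4 of 5 libraries, and beside CthPN it was -0.13 ± 0.12, with ScPN lower in 4 of 5 (SD, n = 5). The exact sign-flip permutation test gave p = 0.25 and p = 0.125, where the smallest it can give for n = 5 is 0.0625.

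Set side by side with no test, the ScPN share of the 3 types was 39.1% at marmoset Day0, beside 11.7%, 32.5% and 25.2% in the mouse from the youngest to the oldest age. ScPN per 100 interneurons were 41.1 ± 7.47, 115 ± 24.9 and 123 ± 11.3 at P1, P7 and P21 (SD over 4 libraries) and 34.8 ± 1.71 at Day0 (SD, n = 5 libraries). The mean share was highest at Day0, but Day0 libraries 4 and 5 (32.9% and 33.8%) lay within the P7 range of 31.2% to 34.9%, and libraries 1 and 2, those with ExNeuron cells, raised the mean. The mean number per interneuron was lowest at Day0, where libraries overlapped those of P1. Species, tissue label and library chemistry went together here and cannot be told apart.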

How the data were processed

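Mouse libraries were made by plate-based combinatorial indexing and marmoset libraries with a droplet kit. The authors aligned reads with Bowtie2, removed duplicates with Picard, sampled libraries to similar depth and called peaks with MACS2 within Scasat. They kept cells between a lower and an upper limit of reads and of peaks, and split clusters by age. The submitters' processing notes name mm10 and MACS2. The sources used here do not give a doublet treatment. The tables deposited by the authors hold counts per cell, of reads and of peaks with a read, without normalization, and a type, library and cluster. No column of another sample was present (0 columns).

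Cells named ScPN, CPN and CthPN were counted per library in Python 3.11.15 with pandas 2.3.3, numpy 2.4.6 and scipy 1.17.1, and drawn with matplotlib 3.10.9. Ages were compared over libraries by exact two-sided permutation tests over all 70 regroupings of 4 against 4, with Benjamini-Hochberg adjustment within families of 9 composition, 9 depth and 12 relative depth differences, at a threshold of 0.05. Single shares have exact (Clopper-Pearson) 95% intervals, and a count of 0 was bounded by 3 counts. Intervals and limits cover counting error only. The test script was tested on simulated data. Of 18 pairs of mouse libraries of an age, 5 agreed within sampling noise in their type counts, and 4 of these were among the 6 pairs of the same series. Within an age, barcodes were shared only between libraries of the same number in different series. The lack of shared barcodes within a series therefore cannot show that its libraries were separate samples. All 4 libraries of an age were counted as samples, and the main permutation test treats them as exchangeable. No gene was named by the rule, which named every library holding ScPN. The members, measures and alternatives were chosen with earlier results of these data known, and 3 alternatives were added after seeing the data.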

Additional observations from a re-analysis of the deposited data

Results flagged for a closer look

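In 1 of 40 sets of library values tested, a library lay far from the others of its group. ScPN per CPN in P7 Pool-2 had a log2 value of -0.54 (0.689 ScPN per CPN), whereas the other 3 P7 libraries lay between -0.87 and -0.84. Chance gives such a gap in about 1 of 20 groups.

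The depth of ScPN relative to CthPN differed between P21 and P7, with every P7 library below 0 and every P21 library above 0 on the log2 scale. The difference was 0.48 for median reads and 0.44 for median peaks (unadjusted p = 0.0286, adjusted p = 0.171, exact permutation test, n = 4). It did not pass the adjustment over 12 differences. The effect of counting the untyped cluster 9 of P7 as CthPN on this difference was not tested.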

How the results depend on the processing

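With the replicate block, in which libraries of the same series and number were paired, the differences kept their values (share of P7 minus P1 20.8 points) and the smallest possible p was 0.125, so none could pass. Of 12 correlations of paired deviations, 5 were over 0.1 (range -0.74 to 0.67), which cannot show what the numbers stand for. Within an age, libraries of the same number shared barcodes and those of different numbers did not. Permuting within each series kept the values, with a smallest p of 0.0556. Leaving out 1 library kept the direction of all 9 composition differences (share of P21 minus P7 -7.80 to -6.56 points), while the log2 reads of P7 minus P1 ran from -0.19 to 0.46. With 4 against 3 libraries the smallest p is 0.0571.

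In the numbered and the Pool libraries alone, respectively, the share differed by 15.1 and 11.9 points (P21 minus P1) and by -5.65 and -9.05 points (P21 minus P7). The log2 of ScPN per CPN differed by 1.75 and 1.14 (P21 minus P1) and by 0.12 and -0.29 (P21 minus P7). Log2 reads differed by -0.71 and 0.96 (P7 minus P1) and by -0.48 and 1.34 (P21 minus P1), and log2 peaks by 1.35 and 0.84 (P7 minus P1). Peaks per 1000 reads differed by 419 and -39.9 (P7 minus P1) and by 412 and -22.6 (P21 minus P1). The log2 ratio of reads to CPN differed by -0.26 and 0.24 (P7 minus P1) and by -0.20 and 0.19 (P21 minus P1), and that to CthPN by 0.030 and 0.44 (P21 minus P1). The log2 ratio of peaks to CPN differed by -0.18 and 0.23 (P7 minus P1) and by -0.19 and 0.20 (P21 minus P1), and that to CthPN by 0.0073 and 0.41 (P21 minus P1). The cause of these gaps between series was not tested.

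Without the numbered P1 libraries, an alternative chosen after seeing the data, P7 and P21 differed from P1 by 1.06 and 1.36 in log2 reads and by -29.8 and -24.6 in peaks per 1000 reads, and for P21 minus P1 the log2 ratios to CPN were 0.16 for reads and 0.16 for peaks. The share of P21 minus P7 lost its call among cells with at least 3444 reads (-7.54 points, adjusted p = 0.0643) and over all annotated cells (-2.17 points, adjusted p = 0.161), and ScPN per CthPN of P21 minus P1 lost it among cells with at least 1528 peaks (log2 0.98, adjusted p = 0.0643; exact permutation tests, n = 4). With cluster 9 counted as CthPN, P21 minus P7 turned to 0.506 points in share (adjusted p = 0.571) and to 0.22 in log2 ScPN per CthPN (adjusted p = 0.0735, exact permutation tests, n = 4). Small ratios to CPN that did not pass changed sign: reads with a minimum of 570 peaks (0.042 for P7 minus P1, 0.058 for P21 minus P1), reads as means over cells (0.014 for P7 minus P1, -0.024 for P21 minus P7) and, chosen after seeing the data, peaks at 2000 to 4000 reads (-0.037 for P7 minus P1, -0.036 for P21 minus P1, 0.00095 for P21 minus P7). The cause was not tested. Averaging libraries that agreed within sampling noise, also chosen after seeing the data, and pooling the cells of an age turned no composition difference. The fewest ScPN cells in a mouse library, 60 in P1 numbered-2, limit the precision of its values.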
